A study of Bos taurus with 24 samples.

Results

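RNF148 was described in bovine oocytes as 1 of the 11306 genes of the deposited expression table, found by its gene symbol, which the table lists at 1 locus. The gene was selected on its higher values in summer than in spring GV oocytes, so that difference is given below as a description with no test. The 24 libraries formed 4 groups of 6, namely GV oocytes of May (spring GV), GV oocytes of July (summer GV), MII oocytes of May (spring MII) and MII oocytes of July (summer MII). GV oocytes are fully grown oocytes still arrested with an intact nucleus, the germinal vesicle, and MII oocytes had been matured in vitro to metaphase II. All oocytes came from adult, non-lactating, non-pregnant crossbred beef cows with an Angus base, managed alike in both seasons, and none carried a transgene or received an experimental agent other than the maturation culture of the MII groups. The methods give each library as a pool of 4 denuded oocytes from 1 cow, while the labels speak of individually lysed cells, and neither tells which libraries of different groups shared a cow.

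RNF148 encodes a RING finger protein of the PA-TM-RING family, whose members join a protease-associated domain in the lumen, a membrane-spanning segment and a RING-H2 finger in the cytosol. The RING finger brings a ubiquitin-loaded E2 enzyme to a substrate, and the family is known as membrane-bound E3 ubiquitin ligases of the endoplasmic reticulum, endosomes and lysosomes. RNF148 itself is best known as a transcript of the testis. The question behind the comparisons was whether season changes the oocyte transcriptome before and after maturation, in animals exposed to summer heat.

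The table places RNF148 on chromosome 4 of the bovine build UMD3.1.1, at 87917957 to 87919209 on the minus strand, a span of 1252 bases. Only 179 genes, 1.58% of the table, have a shorter span, and the median span is 19713 bases. The gene lies wholly inside the span of CADPS2, at 87522149 to 88100975 on the same strand, 395808 bases from the lower and 181766 bases from the upper end of that gene. CADPS2 encodes a factor for the release of dense-core vesicles. The table holds no exons, so the position of RNF148 relative to the exons and introns of CADPS2 was not read from it.

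The values are FPKM, fragments scaled to gene length and to the number of mapped fragments, to which the lowest value of the table, 0.01, appears to have been added. After that value was subtracted and the rest multiplied by the gene's span, 98.7% of 39827 low values lay within 0.1 of a whole multiple of a single step per library, against 20% by chance. The kilobases in the deposited values are therefore those of the whole span, introns included, and not those of exons. This gave the number of whole reads behind each value. It also lowers the FPKM of genes with long introns relative to a short gene such as RNF148, so levels are compared between genes below both as FPKM per span and as recovered reads.

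RNF148 was above the lowest value of the table in all 24 libraries and rested on 1826 recovered reads in all. Spring GV oocytes had 4.24, 3.45, 4.05, 2.18, 1.73 and 2.73 FPKM in replicates 1 to 6. Summer GV oocytes had 7.19, 21.8, 3.34, 6.15, 4.64 and 7.85 FPKM. Spring GV held the lowest values of the 4 groups, and in summer GV replicate 2 stood far above the other libraries of its group. Spring MII oocytes had 4.50, 6.81, 11.0, 4.65, 4.99 and 38.7 FPKM, and summer MII oocytes had 4.96, 7.83, 5.30, 7.46, 5.97 and 9.80 FPKM. Spring MII replicate 6 was the highest library of the series, and in FPKM the spring GV libraries lay closest together, followed by summer MII.

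**Figure D1:**
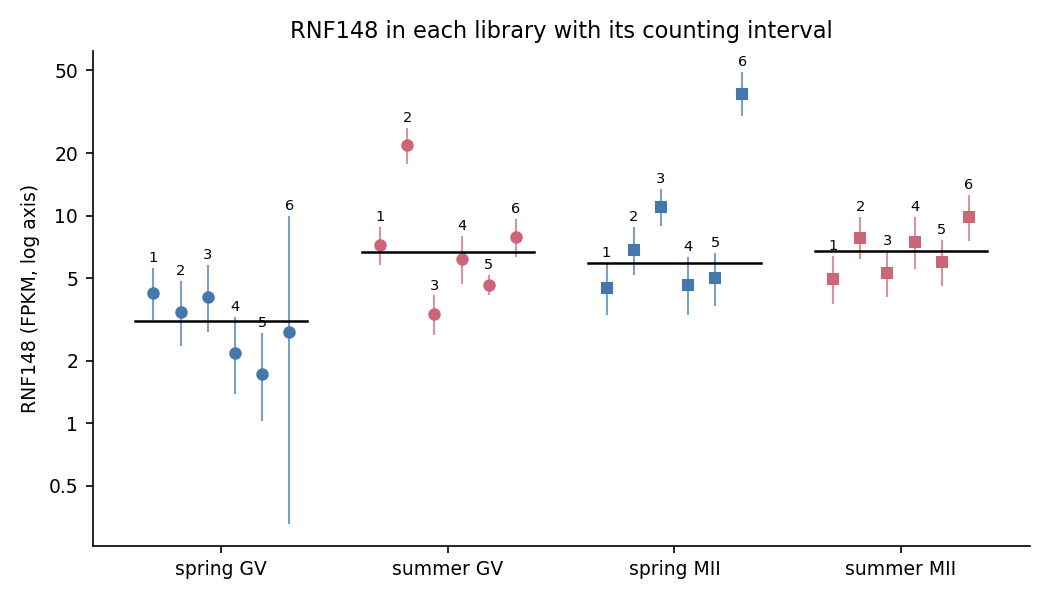
RNF148 in FPKM on a log axis for each of the 24 libraries, with the replicate number above each point, the exact 95% Poisson interval of its recovered reads as a vertical line and the group median as a black bar (circles GV, squares MII; blue spring, red summer). The spring GV libraries lie between 1.73 and 4.24 FPKM, below every MII library, and summer GV replicate 2 at 21.8 and spring MII replicate 6 at 38.7 FPKM stand above the rest.

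The means were 3.06 ± 1.02 FPKM in spring GV, 8.49 ± 6.71 in summer GV, 11.8 ± 13.4 in spring MII and 6.89 ± 1.83 in summer MII oocytes (SD, n = 6 each). The medians gave a narrower picture, at 3.09, 6.67, 5.90 and 6.72 FPKM in the same order. By median the order was therefore spring GV, spring MII, summer GV and summer MII, and the last 3 lay within 1 SD of each other. Without replicate 2 summer GV averaged 5.84 ± 1.85 FPKM, and without replicate 6 spring MII averaged 6.39 ± 2.74 FPKM (SD, n = 5 each), both close to the summer MII mean. The higher mean of spring MII than of the other groups thus rests on 1 library.

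Counting error differed widely between libraries, since 1 read was worth between 0.0118 and 1.36 FPKM at this gene. Spring GV replicate 6 held 2 RNF148 reads, and its exact 95% Poisson interval ran from 0.330 to 9.84 FPKM. Summer GV replicate 5 held 392 reads, with an interval of 4.19 to 5.12 FPKM. The highest libraries were not set by a few reads, because summer GV replicate 2 held 111 reads (17.9 to 26.2 FPKM) and spring MII replicate 6 held 75 reads (30.4 to 48.5 FPKM). In spring GV oocytes counting alone gave an SD of 0.934 FPKM against 1.02 FPKM between libraries, a value carried by replicate 6. Without it the counting SD was 0.553 FPKM against 1.13 FPKM between the other 5 libraries, and the intervals of replicate 1 (3.19 to 5.51 FPKM) and replicate 5 (1.03 to 2.68 FPKM) did not overlap. In summer GV, spring MII and summer MII oocytes the counting SD was 1.01, 1.96 and 0.864 FPKM against 6.71, 13.4 and 1.83 FPKM between libraries. These intervals cover counting error only, since amplified reads without molecular identifiers are not independent molecules.

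Over all listed genes the recovered reads came to about 2543630 in summer GV replicate 2, to 324647 and 1028730 in replicate 6 of spring GV and of spring MII, and to 2689300 to 28207100 in the other 21 libraries. In the same 3 libraries the 10 highest genes held 18.0%, 19.3% and 24.1% of the summed FPKM, against 27.7% to 43.2% elsewhere. The median-of-ratios factor, which measures how far the typical gene of a library lies above its value elsewhere, was 1.86, 1.44 and 1.47 in them and 0.724 to 1.34 in the others. Both libraries with the highest RNF148 were thus among the 3 with the highest factors. The median FPKM of all genes was 0.417 and 0.372 in summer GV replicate 2 and spring GV replicate 6, above the 0.132 to 0.281 of the other 21 libraries, but 0.228 and within that range in spring MII replicate 6. Divided by that factor, RNF148 was 11.7 FPKM in summer GV replicate 2 and 26.4 FPKM in spring MII replicate 6. Both remained the highest values of their groups, and spring MII replicate 6 still stood well above the next library of its group at 9.16 FPKM.

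Of the 15 oocyte markers in the table, out of 24 listed, 14 had a mean of at least 1 FPKM, among them GDF9, an oocyte growth factor, at 124 FPKM and ZP2, a protein of the zona pellucida, at 97.3 FPKM. Their summed level ran from 860 to 1459 FPKM in spring GV, 1223 to 2283 in summer GV, 1513 to 1778 in spring MII and 1471 to 1880 in summer MII libraries. The 24 cumulus and granulosa cell markers in the table, of 27 listed, summed to 39.1 to 592, 35.0 to 128, 35.9 to 167 and 28.0 to 87.0 FPKM in the same order. The highest cumulus sum of each of the first 3 groups was in the library of lowest depth, namely spring GV replicate 6, summer GV replicate 2 and spring MII replicate 6. In summer GV and spring MII the highest values of KRT18, KRT8 and STAR were 32.9 to 70.8 FPKM. No other cumulus or granulosa marker exceeded 6.87 FPKM there, so these sums rest mainly on those genes. In spring GV KRT18, KRT8 and STAR reached 392, 146 and 34.9 FPKM. By contrast with the other groups, VIM, INHA, FST, GJA1 and AMH there also reached 75.7, 37.2, 20.3, 15.6 and 13.4 FPKM. Spring GV replicate 3 had the next highest cumulus sum of its group, at 217 FPKM. The part of cumulus and granulosa cells in the RNF148 values was not tested. The 8 blood cell markers in the table, of 14 listed, summed to 2.30 to 21.4 FPKM over the 24 libraries. All values are shares of a library, so a lower amount of RNF148 per oocyte and a higher amount of other RNA cannot be told apart.

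The summer GV libraries exceeded the spring GV libraries by 1.04 on the log2(FPKM + 1) scale, the comparison on which the gene was selected. With 5 of 6 summer libraries above every spring library and 3 of 6 spring libraries below every summer library, the groups overlapped through summer GV replicate 3 at 3.34 FPKM, which lay below 3 of the spring libraries. Genes were called at the limits given in the methods of the study, a fold change over 2 with an unadjusted p under 0.05. The test here was limma on log2(FPKM + 1), while the study used the GSA algorithm of Partek Flow. The counts of called genes are therefore not those of the study's method. Between summer and spring GV oocytes 3 genes of 9526 tested were called, 0.0315%, and RNF148 was among them by selection. Its log2 difference lay only just above the value of 1 that the fold limit requires, and it was 0.99 after quantile normalization, 0.90 after median-of-ratios scaling and 0.73 without summer GV replicate 2 and spring GV replicate 6, all under that limit. Leaving out single libraries moved it between 0.74, without summer GV replicate 2, and 1.22, without summer GV replicate 3.

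The MII libraries played no part in the selection and show how RNF148 differed between seasons in mature oocytes. The difference of summer minus spring was -0.29 on the log2(FPKM + 1) scale, with a standard error of 0.44 and a 95% interval from -1.24 to 0.67 (limma, unadjusted p = 0.527, adjusted p = 1). The exact two-sided permutation test over 924 assignments gave p = 0.701, where the smallest possible was 0.00216. The season difference in MII oocytes was therefore smaller than the spread between libraries. It turned to 0.13 with a standard error of 0.24 without spring MII replicate 6, so even its direction rested on 1 library. The 95% interval with all MII libraries ended at 0.67. The 1.04 described in GV oocytes is a selected value and was not set against it. The season differences at the GV and MII stages were not tested against each other. In MII oocytes 4 genes of 9526, 0.042%, were called by limma between seasons, all lower in summer, and none at an adjusted p under 0.05, while 201 had an unadjusted p under 0.05.

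Averaged over both seasons, MII oocytes exceeded GV oocytes in RNF148 by 0.59 on the log2(FPKM + 1) scale, with a standard error of 0.29 and a 95% interval from -0.00 to 1.18. The difference did not pass the test, with an unadjusted limma p of 0.0512 and an adjusted p of 0.0941 over all 9526 genes. An exact two-sided permutation test that shuffled the stage within each season over 853776 assignments gave p = 0.0786. Both tests use the GV libraries on which the gene was selected. Selection on a season difference leaves the average over seasons untouched only where both GV groups spread alike. On this scale the SD was 0.38 in spring GV and 0.82 in summer GV, so these p-values may carry part of the selection. In this comparison 11.5% of the genes were called, 265 higher and 832 lower in MII oocytes, and 48% had an adjusted p under 0.05 at any fold. After quantile normalization the split of called genes was 516 higher and 675 lower. RNF148 thus did not pass in the main limma fit, which does not show that it was unchanged. The side of the limit on which it fell depended on the setting. Its adjusted p by limma was 0.00763 after quantile normalization (log2 difference 0.83), 0.0353 after median-of-ratios scaling (0.57) and 0.207 from RPM (0.43), within a range of 0.00763 to 0.208 over the settings plotted.

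**Figure D2:**
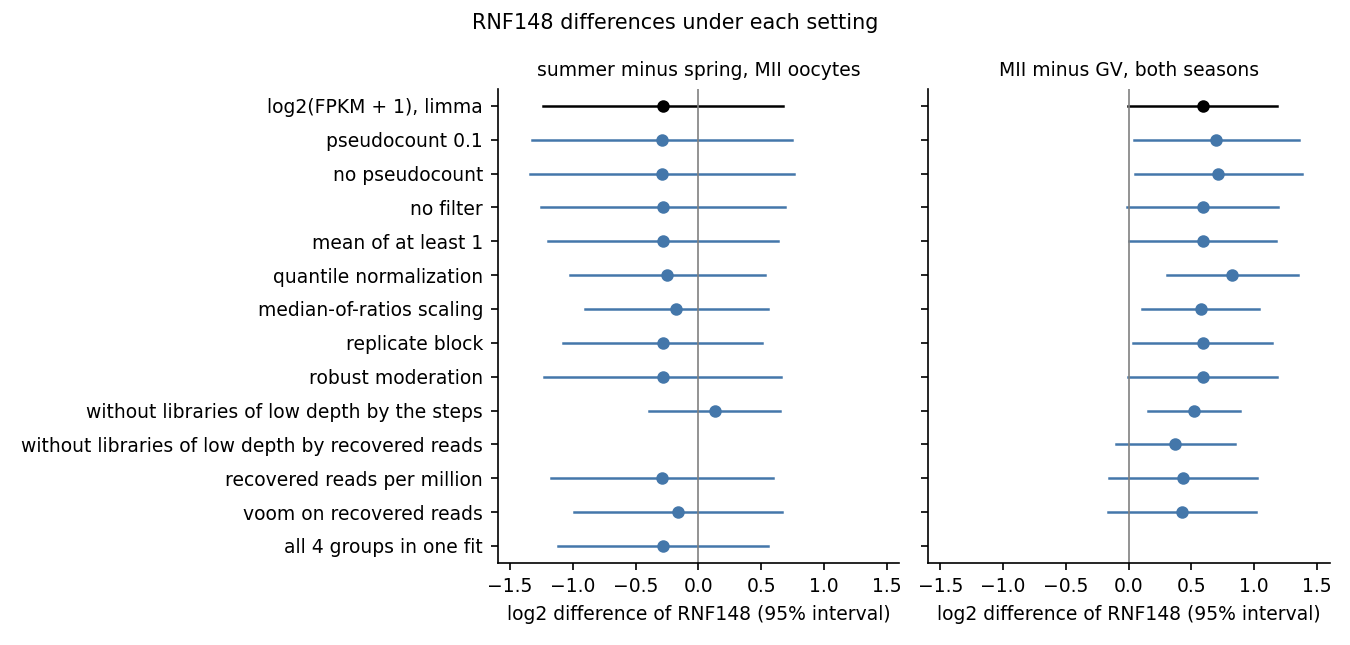
Log2 difference of RNF148 with its 95% interval (horizontal axis) for summer minus spring in MII oocytes (left) and MII minus GV oocytes over both seasons (right), 1 line per setting, the black line being the value in the report. The left intervals all include 0 and the value is 0.13 only without the library of low depth; the right values are all above 0, from 0.37 to 0.83, and some of their intervals include 0.

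The stages lay apart in spring and together in summer. MII minus GV was 1.25 on the log2(FPKM + 1) scale in spring and -0.08 in summer. Both values use GV libraries of the comparison that selected the gene and are given with no test. Every spring GV library lay below every MII library of both seasons, which makes 36 of 36 library pairs with spring MII and 36 of 36 with summer MII. This separation also uses the spring GV libraries on which the gene was selected. The share of all genes separated in this way was not counted. Summer GV libraries were lower than summer MII libraries in only 19 of 36 pairs, so these groups overlapped. Leaving out spring MII replicate 6 took the spring difference to 0.84, and leaving out single libraries moved the summer difference between -0.26 and 0.22.

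The separation of spring GV from the MII libraries was less complete on other scales. As reads per 1000000 recovered reads (RPM) the group means were 9.28 ± 3.88 in spring GV, 22.0 ± 11.8 in summer GV, 25.8 ± 23.8 in spring MII and 16.5 ± 2.38 in summer MII (SD, n = 6 each). On this scale 4 of 6 summer GV, 3 of 6 spring MII and 5 of 6 summer MII libraries lay above every spring GV library. After division by the median-of-ratios factor the counts were 3, 3 and 5 of 6. Spring GV replicate 1, at 15.2 RPM, reached furthest into the other groups. Spring GV had the lowest median on each of these scales.

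**Figure D3:**
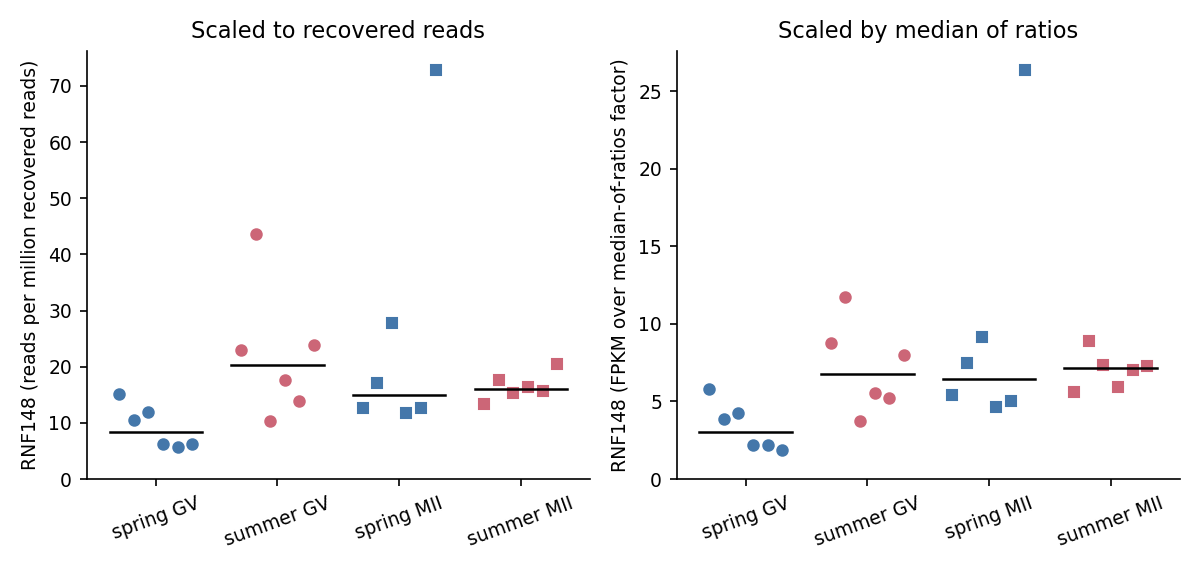
RNF148 per library as RPM (left) and as FPKM divided by the median-of-ratios factor (right), both axes linear from 0, with group medians as black bars (circles GV, squares MII; blue spring, red summer). Spring GV has the lowest median on both scales and its highest library overlaps the other groups.

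Against all other genes RNF148 stood high by FPKM and near the middle by reads. Its mean of 7.55 FPKM over the 24 libraries ranked 1166 of 11306 genes, within the top 10.3%. Its mean of 18.4 RPM ranked 5100, at 45.1%, and among the 480 genes with a span of up to 2 kb its mean FPKM ranked 195. The high FPKM rank thus went with the short span. By library the FPKM rank ran from 1315 to 2607 in spring GV, 681 to 1879 in summer GV, 360 to 1355 in spring MII and 927 to 1255 in summer MII oocytes. The spread of RNF148 within groups was an SD of 0.73 on the log2(FPKM + 1) scale, against a median of 0.61 for the 329 genes of like level, and ranked 107 of them. Without spring MII replicate 6 and summer GV replicate 2, its spread ranked 245 of the 329 genes. These were the 2 libraries with the highest RNF148.

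**Figure D4:**
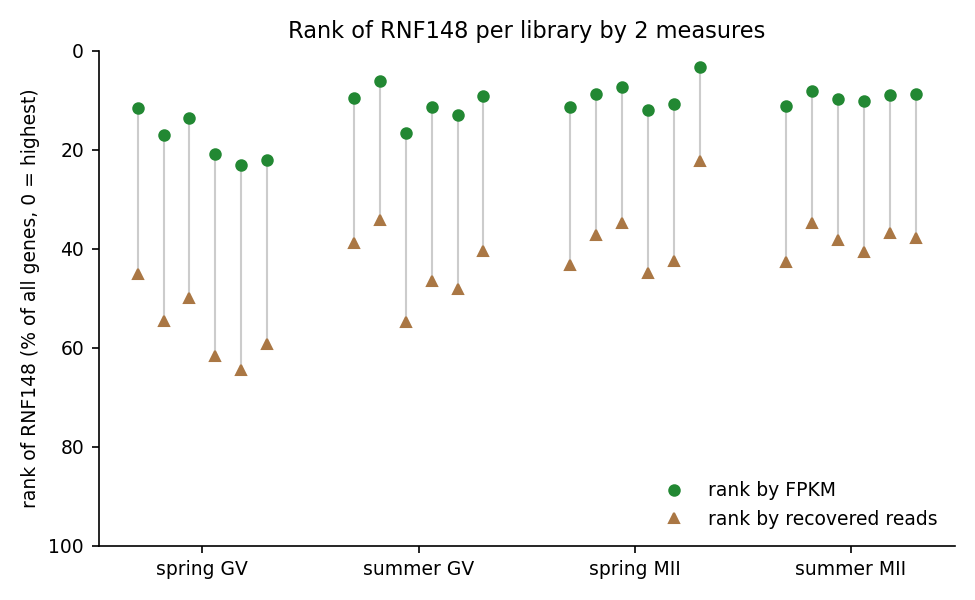
Rank of RNF148 among the 11306 genes in each library, in percent with the highest gene at the top, by FPKM (green circles) and by recovered reads (brown triangles), joined by a grey line per library. The rank by FPKM is the higher in every library, and the spring GV libraries rank lowest in their group medians by both measures.

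Genes as short as RNF148 were called more often. Of the 480 genes with a span of up to 2 kb 28.7% were called between MII and GV oocytes, against 10.6% of the 9046 longer genes. All 3 genes called between seasons in GV oocytes and 3 of the 4 called in MII oocytes were among the 480. The median absolute log2 difference between seasons in MII oocytes was 0.15 in the short and 0.05 in the longer genes, on a scale that adds 1 FPKM and so damps the differences of genes with low FPKM. No test was run on this split.

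The surrounding gene CADPS2 was listed at 0.0320 to 0.0547 FPKM in the 24 libraries and stayed under the filter of 0.1 FPKM. Its group means were 0.0397 in spring GV, 0.0474 in summer GV, 0.0400 in spring MII and 0.0408 FPKM in summer MII oocytes. CADPS2 rested on 10 to 1542 reads per library, spread over a far longer span. Per base of span RNF148 carried 52.6 to 1084 times the signal of CADPS2, with a median of 175. The ratio was 52.6 to 163 in spring GV, 101 to 508 in summer GV, 125 to 1084 in spring MII and 152 to 431 in summer MII libraries. The RNF148 values therefore did not move in proportion to those of the surrounding gene. The library kit does not mark strand, and both genes lie on the same one, so reads at RNF148 from a longer CADPS2 transcript could not be separated.

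Of the other genes within 1 Mb, CBX3, a heterochromatin protein gene 505726 bases away, averaged 4.29 FPKM and did not pass the test between stages (log2 difference 0.13, standard error 0.48). NDUFA5, a subunit of respiratory complex I 738573 bases away, fell by 1.71 on the log2(FPKM + 1) scale from GV to MII oocytes (limma, adjusted p = 1.96e-06). WASL, an activator of actin nucleation 858770 bases away, rose by 0.36 (limma, adjusted p = 0.00389). FEZF1, a transcription factor gene, and IQUB, a gene of cilia, were at the lowest value in 16 and 17 of the 24 libraries. The genes near RNF148 thus had no shared direction between the stages.

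Of the 12 listed symbols of the PA-TM-RING family 6 were in the table, at 7 loci, and all 7 loci passed the filter. None was called between stages, against 11.5% of all genes, or between seasons in MII oocytes, against 0.042%. Only 2 of the 7 loci averaged at least 1 FPKM, beside 3665 of the 9526 genes tested. With 1 FPKM added, a locus well under that level can hardly reach the log2 difference of 1 that a call requires. The absence of calls thus says little about such loci. At an adjusted limma p under 0.05 between stages 2 rose and 1 fell, so 3 of 7 loci beside 48% of all genes, with a median log2 difference of 0.18 over the 7 loci, against -0.03 over all genes. RNF13, a ligase of endosomes and the endoplasmic reticulum, rose by 0.43 (adjusted p = 0.000291), from 0.243 and 0.259 FPKM in spring and summer GV to 0.584 and 0.847 FPKM in the MII groups. RNF130, the mammalian counterpart of goliath, rose by 0.18 (adjusted p = 8.26e-05), from 0.141 and 0.162 to 0.313 and 0.303 FPKM. RNF43, which removes Wnt receptors from the cell surface, fell by 0.03 (adjusted p = 0.0469) at levels of 0.0168 to 0.0517 FPKM.

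The other family members did not pass the test between stages. RNF128, a ligase known from T cell anergy, had group means of 0.0598 to 0.122 FPKM and a log2 difference of 0.05. RNF167, a ligase of lysosomes and endosomes, was listed at 2 loci. The locus on chromosome 4 at 59913298 to 59913962, of 664 bases, averaged 26.0 FPKM, and that on chromosome 19 at 27085162 to 27087525 was at the lowest value in 23 libraries. In summer MII replicate 4 the order was turned, with 7.40 FPKM on chromosome 19 and the lowest value on chromosome 4, so the reads of this gene may have been split between copies and its level is uncertain. Per span only RNF148 and this RNF167 locus averaged above 1 FPKM, while by reads RNF13 had 125 and RNF130 had 65.6 RPM against 18.4 RPM of RNF148. The span in the denominator, not more reads, thus placed RNF148 above RNF13 and RNF130.

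Among the 62 loci whose symbol starts with RNF, RNF148 ranked 7 by mean FPKM and 34 by mean RPM. Its neighbours by FPKM were RNF126, a cytosolic ligase of protein quality control, at 10.2 and RNF25 at 6.55 FPKM. RNF126 had 180 and RNF25 had 129 RPM.

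Of 40 listed genes of the endoplasmic reticulum and of ubiquitin transfer, such as E2 enzymes and factors that retrieve misfolded proteins, 36 were in the table and passed the filter. Between stages 1 was called higher and 1 lower, so 2 of 36 beside 11.5% of all genes. UBXN4, a membrane factor that recruits the p97 ATPase, rose by 1.21 on the log2(FPKM + 1) scale (limma, adjusted p = 6.29e-07), from 4.07 and 4.57 FPKM in spring and summer GV to 12.8 and 9.69 FPKM in the MII groups. DERL2, a channel component of retrotranslocation, fell by 1.52 (limma, adjusted p = 3.69e-08), from 43.5 and 41.1 to 14.6 and 13.2 FPKM. At an adjusted p under 0.05 without a fold limit 9 rose and 7 fell, so 16 of 36 beside 48% of all genes, with a median log2 difference of 0.16 over the 36 genes and -0.03 over all genes. Between seasons in MII oocytes none was called by limma, 1 had an unadjusted p under 0.05 and the median was -0.02.

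Because RNF148 is best known from the testis, 41 genes of spermatids were set beside it. Of these 17 were in the table, 13 passed the filter and 2 had a mean of at least 1 FPKM. LDHC, the lactate dehydrogenase of germ cells, averaged 5.58 FPKM and ACRV1, an acrosomal protein, 2.97 FPKM, followed by ZPBP2 and ODF2 at 0.216 and 0.215 FPKM. None of the 13 was called between stages, beside 11.5% of all genes, or between seasons in MII oocytes. At the low levels of most of them, with 1 FPKM added, a log2 difference of 1 could hardly be reached. At an adjusted p under 0.05 between stages 1 rose and 2 fell, so 3 of 13 beside 48% of all genes. RNF148 was above all of them in FPKM per span, but by reads LDHC at 387 RPM and ACRV1 at 42.3 RPM lay above RNF148 at 18.4 RPM.

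The genes whose pattern was most like that of RNF148 over the 24 libraries, by Pearson's correlation of log2(FPKM + 1), were NT5C2 at 0.91, FBXL20 at 0.89, NCAPG2 at 0.88, and FAM98A, ANAPC5 and PPT1 at 0.87 each. Spearman's correlation was 0.79, 0.89, 0.90, 0.73, 0.69 and 0.77 in the same order. The lowest correlations were those of RAC3 and SNRPB at -0.78, CYSTM1 at -0.75 and PRKCDBP at -0.74. In all, 102 genes were above 0.8. Without spring MII replicate 6 and summer GV replicate 2, the 2 libraries with the highest RNF148, no gene was above 0.8, and NT5C2, FBXL20 and NCAPG2 had 0.75, 0.73 and 0.78. These libraries were left out for their RNF148 values, and the likeness is given with no test since the genes were picked for it.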

How the data were processed

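RNA from 24 libraries had been amplified with a Smart-seq2 kit and sequenced as paired reads. The authors removed low-quality reads and adaptors, mapped the rest with STAR 2.5.3a on UMD3.1.1 and deposited FPKM per gene, with Partek among the tools that the submitters' notes name. The deposited FPKM have a common total per library and a lowest value of 0.01, steps that no source used here describes. Recovered reads were computed from whole multiples of a step per library, found in Python 3.11.15 with numpy 2.4.6, pandas 2.3.3 and scipy 1.17.1, and both this step and limma were tested on simulated data. Column totals are not depth, and depth was taken from the recovered reads.

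Genes over 0.1 FPKM in at least 1 library, 9526 of 11306, were tested on log2(FPKM + 1) with limma (version 3.58.1, R version 4.3.3), its prior spread following mean expression, and Benjamini-Hochberg adjustment over all of them. Calls needed a fold over 2 together with an unadjusted p under 0.05. Fold changes on this scale understate those of low genes. Since no source ties each library to a named cow, p-values measure the spread between libraries. Single values also had two-sided exact permutation tests.

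RNF148, the lists and the tests were chosen with earlier results of these data known. Named genes are RNF148, the measured PA-TM-RING members, genes within 1 Mb, the 6 genes most and 4 least like RNF148, its neighbours in rank among RNF genes, the called members of the endoplasmic reticulum list and the 4 highest spermatid genes; GDF9 and ZP2 were named as examples after their values were seen. Oocyte, cumulus and blood markers served as checks.

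Alternatives were a pseudocount of 0.1 or none, quantile normalization, no filter, median-of-ratios scaling, a mean of at least 1, a replicate block, robust moderation, all 4 groups in one fit, adjusted p, leaving out libraries of low depth (below 0.5 of spring GV replicate 1; 3 libraries by the step, including summer GV replicate 2, but only replicate 6 of spring GV and of spring MII by recovered reads) or each library in turn, and, added after the values were seen, reads per 1000000 recovered reads (RPM), voom on recovered reads and depth by recovered reads. Sequences were not analysed here.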

Additional observations from a re-analysis of the deposited data

Results flagged for a closer look

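In groups of 6 a library was singled out when its gap to the nearest other library exceeded Dixon's 95% critical share of the group's range. For normally distributed values chance alone gives this in about 1 of 20 groups. The rule was applied to FPKM without a log, for which that rate need not hold. Over 29 groups tested 6 stood out, each through its highest library, and this count was not tested against chance. RNF148 was 21.8 FPKM in summer GV replicate 2, with the next library at 7.85 and a gap of 0.755 of the range, and 38.7 FPKM in spring MII replicate 6, with the next at 11.0 and a gap of 0.810. The median-of-ratios factors of these libraries were 1.86 and 1.47, against 0.724 to 1.34 in 21 of the 24 libraries, and recovered reads were low in spring MII replicate 6 (1028730), and the part of these in the RNF148 value was not tested. RNF13 was 1.82 FPKM in summer MII replicate 2, with the next at 0.741 and a gap of 0.866. The RNF167 locus on chromosome 19 was 7.40 FPKM in summer MII replicate 4 and 0.01 in the others, a gap of 1, and the locus on chromosome 4 was 35.7 FPKM in spring GV replicate 2, with the next at 18.6 and a gap of 0.654. RNF43 was 0.0902 FPKM in summer GV replicate 3, with the next at 0.0355 and a gap of 0.682.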

How the results depend on the processing

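RNF148 between seasons in MII oocytes kept its direction in 11 of 12 settings and turned to 0.13 without the library of low depth, spring MII replicate 6. No filter, a mean of at least 1, the replicate block, robust moderation and a joint fit of all 4 groups cannot move this difference. Their agreement in direction was thus fixed in advance. Leaving out each library gave -0.44 to 0.13. Between stages the direction held in all 12 settings, though no filter, a mean of at least 1, the replicate block and robust moderation again cannot move the difference. The unadjusted limma p fell under 0.05 in 7 of the 12 settings. The log2 differences there were 0.70 at a pseudocount of 0.1, 0.71 with none, 0.59 with a mean of at least 1 and 0.83 after quantile normalization. They were 0.57 with median-of-ratios scaling, 0.59 with the replicate block and 0.52 without libraries of low depth by the steps. The adjusted limma p was under 0.05 only after quantile normalization (0.00763), with median-of-ratios scaling (0.0353) and without libraries of low depth by the steps (0.0161). All p-values between stages use the GV libraries on which the gene was selected and may carry part of that selection. Leaving out each library gave 0.38, without spring MII replicate 6, to 0.74, without summer GV replicate 2, with an unadjusted limma p under 0.05 in 7 of 24 fits. The fold never passed 2. Genes called between seasons in MII oocytes were 23 at a pseudocount of 0.1, 102 with none, 0 with median-of-ratios scaling (192 at an unadjusted p under 0.05), 9 without low depth, 38 from RPM, 159 by voom and 0 by adjusted p, and 2 (without spring MII replicate 1) to 16 (without summer MII replicate 1) with each library left out. Between seasons in GV oocytes they were 37, 116, 75 and 148 at a pseudocount of 0.1, with none, from RPM and by voom, 6 after quantile normalization and with median-of-ratios scaling, 14 with all 4 groups in one fit, and 3 to 13 (without spring GV replicate 6) with each library left out. Between stages they were 2676, 4151, 3463 and 4252 at a pseudocount of 0.1, with none, from RPM and by voom, where the median log2 difference of all genes was -0.14, -0.27, -0.35 and -0.48, and 1036 to 1175 with each library left out. Same-numbered libraries deviated together in some groups and not in others: the median r over 6 pairs was 0.55 between spring and summer MII (4 of 6 pairs over 0.1, 4 of 6 libraries closest to their own number) and 0.29 between summer GV and summer MII, and from -0.12 to 0.09 in the other 4 group pairs. Since no group pair had every r over 0.1, the numbers were not taken as pairs, and the replicate block gave -0.29 between MII seasons with 6 genes called. The cause of these shifts was not tested. Depth limits spring GV replicate 6 most, with 2 RNF148 reads.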
